A study of Mus musculus with 4 samples.

Results

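Lysosomal hydrolases are the enzymes that break down proteins, glycans and lipids in the acidic lumen of the lysosome, and lysosomal membrane proteins build the limiting membrane and move the products across it. The 37 mouse genes described here were chosen by symbol in the deposited gene table, out of 28649 gene rows. They comprise 13 cathepsins and other proteases, 10 glycosidases, 4 sulfatases, 5 lipid hydrolases and activators, and 5 membrane and sterol transport proteins. All 37 symbols were found, and 36 had enough counts to be tested.

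The cells were fibro-adipogenic progenitors (FAPs), mesenchymal stromal cells of skeletal muscle, sorted by Sca1 from muscle of wild-type C57Bl/6 mice and cultured. At about 80% confluency they received a biotin-tagged mimic of miR-206, or a biotin-tagged control mimic, for 24 h, followed by 48 h in basal medium containing 10% horse serum. RNA captured with the mimic was sequenced in 2 miR-206 libraries and 2 control libraries, and the comparison asks which transcripts come down with miR-206. What the control mimic's sequence was cannot be told from the labels, and no library of unselected RNA was analysed, so a difference in capture and a difference in cellular level cannot be told apart. For the same reason, and because each library is a bulk sample, fewer cells of a type and less RNA per cell cannot be told apart. The labels do not say whether replicates came from separate mice or cultures, and the p-values therefore reflect the spread among these libraries alone, which may be technical.

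Hydrolases reach the lysosome from the secretory pathway, most of them carrying a mannose-6-phosphate tag. Many are made as inactive precursors that mature at low pH, and many of their genes are switched on together by the transcription factor TFEB and its relatives. Loss of single enzymes of this group causes lysosomal storage diseases, several of which affect muscle and connective tissue.

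A microRNA recognises targets largely through its seed, bases 2 to 8, which pairs with transcripts. The mature miR-206 sequence is shown because it is the bait whose captured transcripts were counted, with the seed in capitals (RefSeq, GRCm38.p6, chr1:20679055-20679076, plus strand).
mmu-miR-206-3p: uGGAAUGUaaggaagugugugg
The transcript letters complementary to this seed are ACAUUCC. Transcript sequences were not searched for them here, so nothing is stated about seed sites in the lysosomal transcripts.

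The libraries held 14566568 and 15426666 estimated counts with miR-206, and 8883197 and 14261566 with control. The 10 most abundant genes took 28.0% and 25.6% of the counts with miR-206, against 13.4% and 15.6% with control, and the TMM scaling factors were 0.624 and 0.737 with miR-206, against 1.62 and 1.34 with control. TMM, the trimmed mean of M-values, scales libraries so that most genes keep the same level. The scaling bears on many of the directions below: with libraries scaled by total counts alone, the median log2 fold of all tested genes was −1.22, against −0.11 with TMM. Levels below are TMM-normalised CPM (counts scaled to a common library size) unless stated, folds are log2 of miR-206 over control with their standard error (SE), and a gene is called enriched or depleted at an adjusted p under 0.05 in edgeR's quasi-likelihood test, with Benjamini-Hochberg adjustment over all 15240 tested genes.

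Of 7 FAP markers, Pdgfra, Ly6a, Cd34, Dcn and Pdgfrb had at least 85.3 normalised CPM in every library, and Pdgfra had 658 and 589 with miR-206, against 510 and 712 with control. Thy1 had 436 and 209 with miR-206, against 37.4 and 47.6 with control. Lum was low, at 12.5 and 8.80 with miR-206, against 17.1 and 31.8 with control, below the endothelial marker Pecam1 at 89.4 and 70.9 with miR-206, against 103 and 36.0 with control. Macrophages are rich in lysosomal enzymes, so their markers were measured beside these genes. Of 13 macrophage markers 6 reached the test, C1qb and Tyrobp were at 0 in every library, and the summed level was 13.8 and 18.4 normalised CPM with miR-206, against 24.2 and 21.2 with control. Of those 6, C1qa was called, as depleted. Among the FAP markers 2 (Cd34 and Thy1) were enriched and 1 (Lum) depleted, and 1 of 4 endothelial and 1 of 3 tested myogenic markers was enriched.

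Of the 36 tested lysosomal genes, 9 were enriched, 1 was depleted and 26 had no call. The enriched share was 25%, against 15.3% of all tested genes, and the depleted share was 2.78%, against 6.19%. The enriched transcripts encode the proteases Lgmn, Ctsb, Ctsh and Ctsl, the glycosidases Idua and Gaa, the sulfatase Arsb, and the lipid-pathway proteins Psap and Ppt1. The depleted one encodes the sulfatase Ids. The median log2 fold was 0.26 with quartiles of −0.35 and 0.92, against −0.11 with quartiles of −0.70 and 0.68 over all tested genes. The miR-206 libraries both lay above both control libraries for 18 members (50%, against 29.7% of all tested genes) and both below them for 10 (27.8%, against 32.3%), and for 8 the groups overlapped. Without control replicate 1, the library with the lowest total, 6 members (16.7%) were enriched, against 16.6% of all tested genes in the same fit, and 3 (8.33%) were depleted, against 10.3%.

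Idua, Lgmn and Ids were the members whose calls held under all 6 scalings compared, namely TMM, RLE (relative log expression), upper quartile, total counts alone, and the deposited TPM (counts divided by transcript length and scaled to a fixed total) with and without centring on each library's median. Enrichment under all 6 scalings was met by 2 of the 36 tested members and by 6.34% of all tested genes. Depletion under all 6 was met by 1 of the 36 and by 4.3% of all. With total counts alone 2 of the 36 members were enriched, against 7.02% of all tested genes, and 19 of the 36 were depleted, against 45.3%. With so few members these shares are coarse, and the counts do not set the members apart from all tested genes. The differences were not tested. The member median stayed above the median of all genes under each of these scalings and each of the other alternatives, by 0.12 to 0.52 on the log2 scale over 15 settings, and 22 to 25 of the 36 members exceeded it. The summed share of total counts in the 37 genes was 0.530% and 0.488% with miR-206, against 0.522% and 0.586% with control, values that overlap. In TMM-normalised CPM their sum was 8492 and 6625 with miR-206, against 3229 and 4383 with control, values that do not overlap. The same sum over all tested genes was 1602400 and 1356450 with miR-206, against 615946 and 746936 with control.

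**Figure D1:**
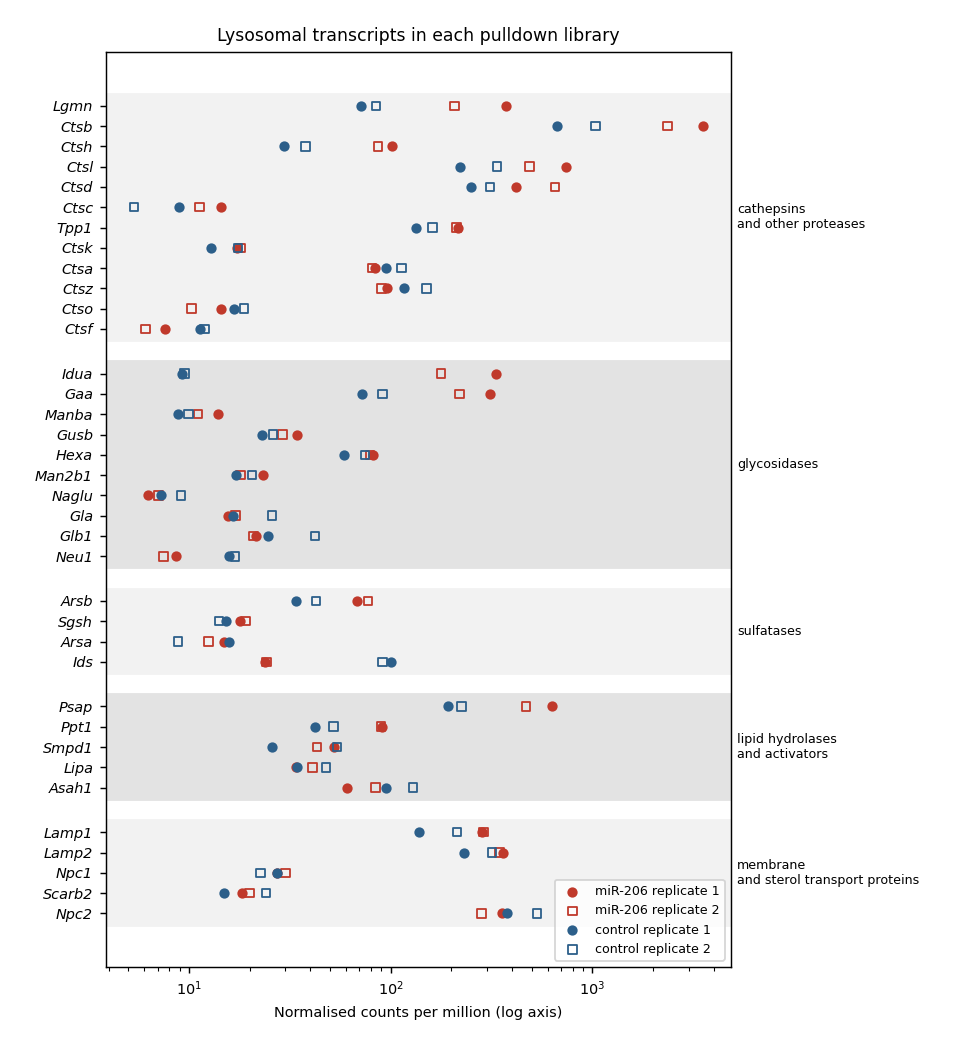
Level of each tested member in each of the 4 libraries, in TMM-normalised CPM on a log axis, by class and ordered by fold within a class (red, miR-206; blue, control; circles, replicate 1; squares, replicate 2). Idua stands apart, with 333 and 177 with miR-206 and 9.19 and 9.49 with control, and Ids is the member lying furthest the other way.

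The largest difference among the members was that of Idua, alpha-L-iduronidase, which removes iduronic acid from the ends of dermatan sulfate and heparan sulfate and whose loss causes mucopolysaccharidosis type I. Idua (chr5:108660331-108685446, RefSeq, GRCm38.p6) had 333 and 177 normalised CPM with miR-206, against 9.19 and 9.49 with control. Both miR-206 libraries lay far above the controls, and they differed from each other more than the controls did. The mean was 255 ± 110 with miR-206 and 9.34 ± 0.22 with control (SD, n = 2 each), a 27.3-fold difference (log2 4.77 ± 0.40 SE, 95% interval 3.93 to 5.61, adjusted p = 1.48e-07). Over the 6 scalings and the other alternatives the log2 fold ran from 3.44 to 5.15. In TPM, Idua had 79.0 and 45.0 with miR-206, against 4.96 and 4.27 with control.

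The Idua locus also holds the transporter gene Slc26a1 inside its span, overlaps Dgkq at one end and the lncRNA gene Gm42151, not analysed here, at the other, and it is not stated whether counting used strand. Slc26a1 held 11.01 and 2.01 estimated counts with miR-206, against 1 and 0 with control, too few to be tested. Dgkq, a diacylglycerol kinase gene, had a log2 fold of −0.36 (adjusted p = 0.669). Idua itself held 3022 and 2014 estimated counts with miR-206 and 132 and 181 with control. The part of these overlapping genes in the Idua value was not tested.

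Ids, iduronate 2-sulfatase, acts on the same glycans one step earlier, taking the sulfate off iduronic acid, and its loss causes mucopolysaccharidosis type II. It was the depleted member. Ids (chrX:70343069-70385834) had 23.8 and 24.2 normalised CPM with miR-206, against 100.01 and 91.2 with control. The groups did not overlap and replicates lay close together in both. The log2 fold was −1.99 ± 0.30 SE (95% interval −2.62 to −1.37, adjusted p = 6.43e-05), so the level was 3.98-fold lower with miR-206. Across the alternatives it ran from −3.12 to −1.90, and the call held in all 14. Idua and Ids, enzymes of one degradation route, were thus at opposite ends of the range of members.

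**Figure D2:**
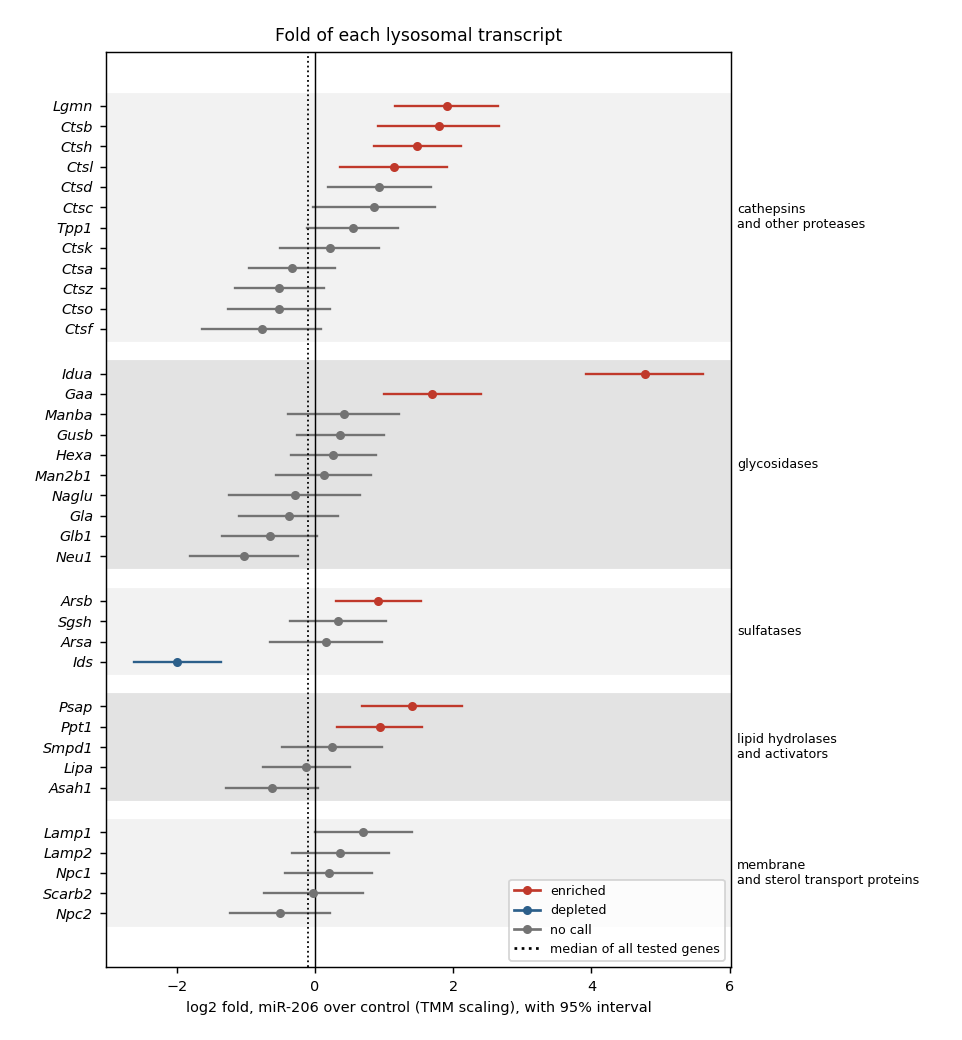
log2 fold of miR-206 over control for the 36 tested members under TMM scaling, as a point with its 95% interval, by class (red, enriched; blue, depleted; grey, no call). The solid line marks 0 and the dotted line the median of all tested genes, −0.11; Idua at 4.77 and Ids at −1.99 lie outside the range of the other members, which is −1.03 to 1.90.

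Among the proteases, 4 of the 12 tested were enriched (33.3%, against 15.3% of all tested genes), with a median log2 fold of 0.70. Lgmn encodes legumain, the asparaginyl endopeptidase that cuts after asparagine and processes several cathepsins to their mature forms. It had 374 and 207 normalised CPM with miR-206, against 70.9 and 84.5 with control. Both miR-206 values exceeded both control values although the miR-206 replicates were well apart. The log2 fold was 1.90 ± 0.36 SE (adjusted p = 0.000655), and it stayed positive and called in all 14 alternatives, at 0.76 to 2.27.

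Ctsb encodes cathepsin B, a cysteine protease, and was the most abundant member, with a mean of 351 TPM over the 4 libraries. It had 3522 and 2351 normalised CPM with miR-206, against 665 and 1036 with control. The groups did not overlap. The log2 fold was 1.79 ± 0.41 SE (adjusted p = 0.00399). The call was lost without control replicate 1 (log2 fold 1.503, adjusted p = 0.0634) and with total counts alone (0.67, adjusted p = 0.0532).

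Ctsh encodes cathepsin H, an aminopeptidase of the same family. It had 102 and 86.3 normalised CPM with miR-206, against 29.7 and 37.8 with control. Replicates were close in both groups and the groups were well apart, with a log2 fold of 1.48 ± 0.30 SE (adjusted p = 0.00131), and the call was lost with total counts alone and with TPM not centred.

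Ctsl encodes cathepsin L, a potent endopeptidase, and ranked next to Ctsb in abundance, with a mean of 224 TPM. It had 737 and 488 normalised CPM with miR-206, against 220 and 336 with control. The gap between the groups was of the size of the gap between the replicates. The log2 fold was 1.14 ± 0.37 SE (adjusted p = 0.0339). It lost its call without control replicate 1 (log2 fold 0.87, adjusted p = 0.164), without miR-206 replicate 1 (0.77, adjusted p = 0.253), and under 4 of the other 5 scalings, where the fold was 0.02 to 0.93.

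Ctsd encodes cathepsin D, the main aspartic protease of the lysosome, and had a mean of 206 TPM. It had 418 and 652 normalised CPM with miR-206, against 250 and 311 with control. Both miR-206 values were the higher ones, yet its log2 fold of 0.93 ± 0.35 SE did not pass the test (adjusted p = 0.0722). In TPM the groups overlapped, with 156 and 260 with miR-206 and 188 and 222 with control. Without miR-206 replicate 1 it was called, at 1.17 (adjusted p = 0.0354), and DESeq2 called it too (0.95, adjusted p = 0.0114).

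The other 7 tested proteases had no call, with log2 folds of −0.77 to 0.85. They were the cysteine cathepsins Ctsc (0.85), Ctsk (0.21), Ctsz (−0.52), Ctso (−0.53) and Ctsf (−0.77), the serine peptidase Tpp1 (0.54), and Ctsa (−0.34), the carboxypeptidase that also shields the sialidase Neu1 and beta-galactosidase. Ctsc is dipeptidyl peptidase 1, and without control replicate 1 it was called enriched (1.26, adjusted p = 0.0353). In the other direction, Ctsz was called depleted under upper quartile scaling (−0.80, adjusted p = 0.0331). With total counts alone 4 proteases (Ctsz, Ctso, Ctsf and Ctsa) were called depleted, where 45.3% of all tested genes were. Ctsk, the collagen-degrading cathepsin best known from osteoclasts, had 17.3 and 17.96 normalised CPM with miR-206, against 12.8 and 17.5 with control, so the groups overlapped. Ctss, a cathepsin of antigen-presenting cells, was not tested: it had 0 counts in both miR-206 libraries, and 7 and 0 counts with control. A count of 0 allows a level of up to 0.330 and 0.264 with miR-206 and of up to 0.157 in control replicate 2, taking 3 counts as the floor and covering counting error only.

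Among the 10 glycosidases, Idua and Gaa were enriched (20%, against 15.3% of all tested genes), with a median log2 fold of 0.20. Gaa encodes acid alpha-glucosidase, which digests glycogen in the lysosome and is lost in Pompe disease, a disorder of muscle. It had 309 and 219 normalised CPM with miR-206, against 71.9 and 91.1 with control. The groups were well apart, with a log2 fold of 1.70 ± 0.33 SE (adjusted p = 0.00103), and the call was lost with total counts alone and with TPM not centred.

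The other 8 glycosidases had no call. Neu1, the sialidase, was nearest to depletion, with 8.59 and 7.48 normalised CPM with miR-206, against 15.8 and 16.9 with control. Its groups did not overlap, and its log2 fold of −1.03 ± 0.37 SE had an adjusted p of 0.0565. It was called depleted under upper quartile scaling (−1.32, adjusted p = 0.0189) and without control replicate 1 (−1.08, adjusted p = 0.0389), among others. Ctsa and Glb1, whose products form a complex with that of Neu1, had log2 folds of −0.34 and −0.65, so all 3 had negative folds that did not pass the test. The remaining folds were 0.41 for Manba and 0.13 for Man2b1, the beta- and alpha-mannosidases, 0.37 for Gusb, beta-glucuronidase, 0.27 for Hexa, the alpha subunit of beta-hexosaminidase, −0.30 for Naglu, which acts on heparan sulfate, and −0.38 for Gla, alpha-galactosidase A. Hexa, Gusb, Man2b1 and Manba had negative folds with total counts alone, −0.997 to −0.71, so their sign depended on the scaling.

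The 4 sulfatases included a member called in each direction. Arsb, which takes sulfate off N-acetylgalactosamine in dermatan sulfate, had 67.8 and 76.9 normalised CPM with miR-206, against 34.1 and 42.6 with control. Its replicates lay close together and the groups did not overlap. The fold in log2 was 0.92 ± 0.29 SE (adjusted p = 0.0319). This call was lost without control replicate 1 (0.76, adjusted p = 0.0687), without miR-206 replicate 1 (0.96, adjusted p = 0.0938) and without miR-206 replicate 2 (0.82, adjusted p = 0.154), and under each scaling other than TMM and RLE, the fold turning to −0.18 with total counts alone and −0.01 with TPM. Sgsh, which removes sulfate from heparan sulfate, and Arsa, which desulfates the myelin lipid sulfatide, had no call, at 0.33 and 0.16.

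The lipid group held 2 enriched genes of 5. Psap encodes prosaposin, the precursor cut into the saposins that present sphingolipids to their hydrolases. It had 632 and 470 normalised CPM with miR-206, against 193 and 225 with control, and a mean of 140 TPM. Both miR-206 libraries were the higher ones, with a log2 fold of 1.40 ± 0.34 SE (adjusted p = 0.00643), and the call was lost with total counts alone and with TPM not centred.

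Ppt1 encodes palmitoyl-protein thioesterase 1, which strips fatty acids from proteins. It had 90.8 and 89.3 normalised CPM with miR-206, against 41.9 and 52.1 with control. The groups were apart, with a log2 fold of 0.94 ± 0.29 SE (adjusted p = 0.0288). The call was lost without control replicate 1 (0.79, adjusted p = 0.0656), without miR-206 replicate 1 (0.88, adjusted p = 0.134) and without miR-206 replicate 2 (0.95, adjusted p = 0.0795), and under each scaling other than TMM and RLE, the fold turning to −0.17 with total counts alone and −0.13 with TPM.

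The Ppt1 gene (chr4:122836077-122859175) overlaps the end of Cap1, the gene of an actin-binding protein, at chr4:122859048-122886076. Cap1 had 219 and 301 normalised CPM with miR-206, against 32.6 and 36.2 with control, a log2 fold of 2.92 ± 0.34 SE (adjusted p = 4e-06). Its part in the Ppt1 value was not tested. In all, 17 of the 37 members overlap another RefSeq gene. Asah1, acid ceramidase, had a log2 fold of −0.63 and its overlapping neighbour Frg1 one of −0.87, and neither was called with TMM scaling. Asah1 was called depleted under upper quartile scaling (−0.90, adjusted p = 0.0328), with total counts alone and with TPM not centred. The remaining lipid enzymes were Smpd1, acid sphingomyelinase, at 0.25 (0.88 without control replicate 2 and −0.19 without control replicate 1), and Lipa, which hydrolyses cholesteryl esters and triglycerides, at −0.13.

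None of the 5 membrane and sterol transport members was called by edgeR with TMM scaling, and 0 of them had an unadjusted p under 0.05 in that fit. DESeq2 also called 0 of them. With total counts alone edgeR called 4 of them depleted (Npc2, Scarb2, Lamp2 and Npc1), where 45.3% of all tested genes were depleted. Lamp1 and Lamp2, the abundant glycoproteins that line the lysosomal membrane, had log2 folds of 0.70 (95% interval −0.01 to 1.40) and 0.37 (−0.34 to 1.07). Lamp1 had 283 and 288 normalised CPM with miR-206, against 139 and 213 with control, with both miR-206 values above both controls. Npc1 and Npc2, which hand cholesterol out of the lysosome, had folds of 0.19 and −0.51. Npc2, a soluble protein and one of the most abundant members with a mean of 136 TPM, had 358 and 282 normalised CPM with miR-206, against 378 and 533 with control. Its miR-206 values were the lower ones, and its fold of −0.51 ± 0.35 SE did not pass the test (adjusted p = 0.331). Scarb2, the receptor that carries beta-glucocerebrosidase to the lysosome, was at −0.03.

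**Figure D3:**
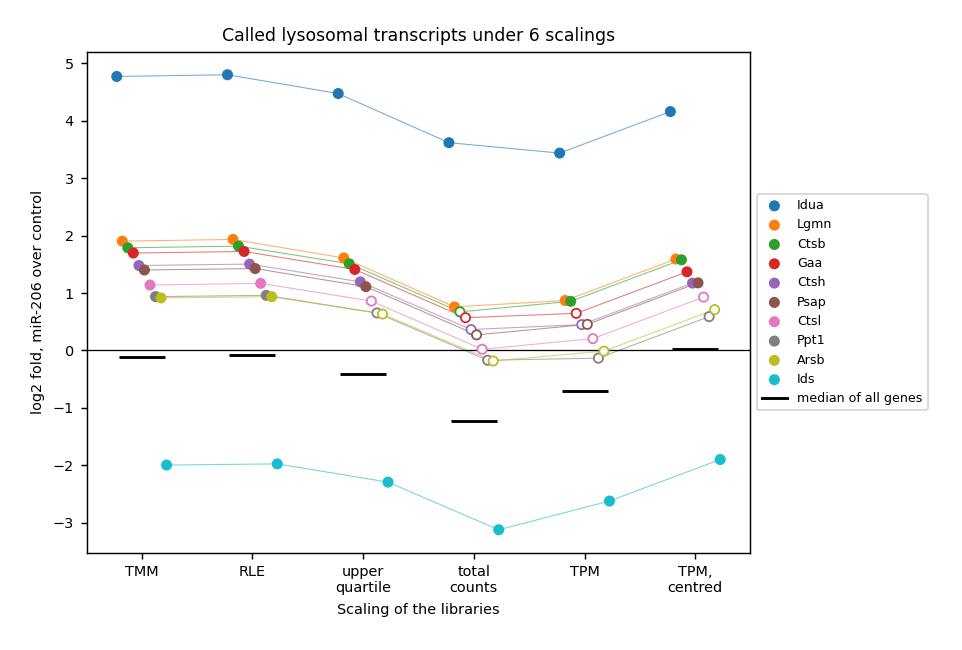
log2 fold of miR-206 over control for the 10 called members under 6 scalings of the libraries (filled, adjusted p under 0.05; open, not called; black bar, median of all tested genes). Idua, Lgmn and Ids are filled throughout, and the folds move down together with the black bar under total counts, where it lies at −1.22.

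The position of 0 changed with the scaling, as the plot of the 10 called members by scaling shows. Relative to the median of all tested genes, 24 of 36 members lay above under TMM, RLE and upper quartile scaling, 25 with total counts alone and 23 with TPM. The sign of many uncalled folds moved with the scaling: all 14 uncalled members with a positive fold under TMM had a negative one with total counts alone and with TPM not centred, and 6 of them had one with upper quartile scaling. The other 12 uncalled members were negative under all 6 scalings. Each of these 12 was called depleted with total counts alone, where 45.3% of all tested genes were, and all but Scarb2 also with TPM not centred. Of the 12 members with the highest mean TPM, 49.6 and above, 5 were enriched, and of the other 24 tested members 4 were. The enriched Ctsh lay just below this cut, at 49.55. Across the 36 members, log2 fold and mean log2 CPM had a Spearman correlation of 0.49, and across all 15240 tested genes of 0.30. Mean TPM and mean log2 CPM include the miR-206 libraries, so a higher level with miR-206 itself raises both. Members share the same 4 libraries and are not independent, so these are descriptions without a test.

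The authors' deposited table gives a log2 fold of the group means of TPM without a test, on a scale that is not centred. It lists 36 members, of which 8 lay above 0 and 28 below, with a median of −0.69, against −0.89 over its 14870 genes. The share above 0 in the authors' deposited table was 22.2% of the members and 18.8% of all listed genes. The members above 0 in the authors' deposited table were Idua (3.75), Lgmn (0.93), Ctsb (0.85), Gaa (0.68), Psap (0.47), Ctsh (0.46), Ctsl (0.20) and Ctsd (0.02). The lowest value in the authors' deposited table was that of Ids, −2.93.

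The E-box letters of the CLEAR element, the site that TFEB is known to bind, were searched for at the members' start sites. Windows of 250 bases upstream to 50 bases downstream of RefSeq starts (GRCm38.p6) were available for 33 of the 37 genes. The letters searched were CACGTG, the longer TCACGTG and the longest TCACGTGA, on either strand, and each shorter string lies inside the longer ones. A gene can have more than 1 window (32851 windows in all) and was counted once if any matched, so more windows give more chances. CACGTG was present for 12 of the 33 genes (36.4%), against 8.09% of the 27025 genes with a window. TCACGTG was present for 10 (30.3%, against 4.29%) and TCACGTGA for 3 (9.09%, against 1.13%), so most member genes had none of them. For the 78 of the other lysosomal genes described below that had a window, the shares were 25.6%, 25.6% and 15.4%. Of the 7 enriched members that had a window, TCACGTG was found for 2, Lgmn and Gaa, and of the 24 such members without a call for 8. No window of Ids held these letters. A match is a string of letters and not a shown binding site, and these libraries measure captured RNA and not transcription.

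The windows around TCACGTG are shown for the enriched Gaa and, for comparison, for Lamp1 and Ctsd, which had no call, with 1 match in capitals in each. The Gaa window is chr11:119267797-119267853 on the plus strand, the Ctsd window is chr7:142387895-142387951 on the minus strand, and the Lamp1 window is chr8:13159074-13159130 on the plus strand (RefSeq, GRCm38.p6).
Gaa: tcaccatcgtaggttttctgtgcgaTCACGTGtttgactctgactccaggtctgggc
Ctsd: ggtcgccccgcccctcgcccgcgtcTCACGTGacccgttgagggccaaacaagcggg
Lamp1: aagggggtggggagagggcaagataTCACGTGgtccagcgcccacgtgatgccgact
The capital letters begin 141 bases upstream of the start in Gaa, 99 in Ctsd and 62 in Lamp1, and the Lamp1 window holds a further match in lower case, read on the other strand. The same letters therefore stand at the gene of an enriched transcript and at genes whose transcripts were not called.

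Other lysosomal genes were measured for comparison, in lists chosen with earlier results of these libraries known. Of 104 such genes 100 were tested, with a median log2 fold of 0.09. Of these, 21 were enriched (21.0%) and 7 depleted (7.0%), against 15.3% and 6.19% of all tested genes. Under all 6 scalings 5 were enriched and 6 depleted, against 6.34% and 4.3% of all tested genes. The number depleted was 17 without control replicate 1, where 10.3% of all tested genes were depleted, and 4 without control replicate 2 (5.37% of all). It was 3 without miR-206 replicate 1 (2.99% of all) and 4 without miR-206 replicate 2 (4.28% of all). The enriched share lay between that of the members and the 15.3% of all tested genes.

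Among 28 other hydrolases and activators, 6 were enriched (21.4%) and 2 depleted (7.14%), against 15.3% and 6.19% of all tested genes. Plbd2, a phospholipase B-like protein, had 439 and 342 normalised CPM with miR-206, against 46.6 and 51.1 with control (8-fold, adjusted p = 3.79e-06). Creg1, a lysosomal glycoprotein, had a log2 fold of 3.44 (4.35 without control replicate 2) and Man2b2, an alpha-mannosidase, one of 1.84. The Man2b2 call was lost with total counts alone (0.73) and with TPM not centred. Epdr1, a lipid-binding lysosomal protein, was lower with miR-206, at 25.5 and 22.3 normalised CPM, against 265 and 347 with control (log2 fold −3.68).

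Of 22 further membrane and transport genes, 7 were enriched (31.8%, against 15.3% of all tested genes), with a median of 0.68. The enriched ones included Slc17a5, the sialic acid exporter sialin (log2 fold 4.69), Ctns, the cystine exporter cystinosin (2.01), and the ion channels Tpcn1 (1.93) and Tmem175 (1.54). The calls of Tpcn1 and Tmem175 were lost with total counts alone (0.81 and 0.46) and with TPM not centred. That of Ctns was lost with TPM not centred. Slc17a5 had 258 and 119 normalised CPM with miR-206, against 7.80 and 6.87 with control, and without miR-206 replicate 1 its log2 fold was 3.97.

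The proton pump that acidifies the lysosome, the V-ATPase, had members called in each direction: 4 of 16 were enriched and 3 depleted. The shares were 25% and 18.75%, against 15.3% and 6.19% of all tested genes. The enriched subunits included Atp6v1b2 (1.46) and Atp6v1g1 (1.28), and Atp6v0b (−1.03) and the accessory subunit Atp6ap2 (−1.09) were among the depleted ones. The cytosolic and the membrane sector each held calls in both directions. Of 15 genes of mannose-6-phosphate tagging and sorting, 3 were enriched (20%) and 1 depleted (6.67%), near the shares of all tested genes. Nagpa, which uncovers the mannose-6-phosphate tag, had 335 and 195 normalised CPM with miR-206, against 8.84 and 10.2 with control (log2 fold 4.79). Of the retromer subunits listed, Vps29 was enriched at 1.19, Vps26a was depleted at −0.86 and Vps35 had no call at −0.59. The Vps26a call was lost under RLE scaling (adjusted p = 0.0501) and with centred TPM (adjusted p = 0.0511). That of Vps29 was lost with total counts alone (log2 fold 0.08) and with TPM, centred or not. The calls of Atp6v1b2 and Atp6v1g1 were lost with total counts alone (0.33 and 0.17) and with TPM not centred. Without miR-206 replicate 1 the calls of Atp6v1g1, Atp6v0b, Atp6ap2, Vps29 and Vps26a were lost, without miR-206 replicate 2 those of Atp6v0b and Vps26a, and without control replicate 2 those of Atp6ap2 and Vps26a, with adjusted p of 0.0526 to 0.207 where lost.

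Of 16 genes of TFEB and nutrient sensing at the lysosome, 1 was enriched and 1 depleted. The share was 6.25% each way, against 15.3% and 6.19% of all tested genes. The called genes were Rragc, a Rag GTPase, at 2.73 and Lamtor4, a subunit of the Ragulator complex that anchors it, at −1.58. Of 3 cystatins, the inhibitors of cysteine cathepsins, 0 were called by edgeR with TMM scaling, 2 had an unadjusted p under 0.05 in that fit, and DESeq2 called 1. With total counts alone edgeR called 2 of the cystatins depleted, where 45.3% of all tested genes were depleted.

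**Figure D4:**
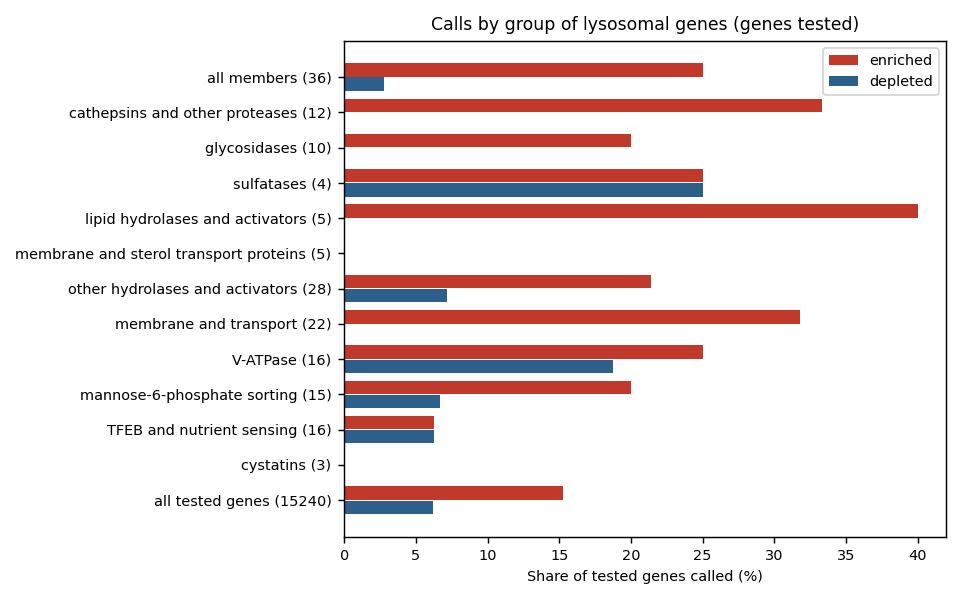
Share of tested genes called enriched (red) or depleted (blue) at an adjusted p under 0.05, for all 36 tested members, their 5 classes, 6 other lists of lysosomal genes and all tested genes, with the number of genes tested in brackets. The members lie at 25% enriched and 2.78% depleted, against 15.3% and 6.19% of all tested genes; classes of 4 or 5 genes move by 20.0 points or more with a single gene.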

How the data were processed

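RNA captured by biotin-tagged mimics was measured in 4 libraries. Estimated counts per gene row were made by the authors with kallisto on mm10, with FastQC as a check, per the submitters' processing notes; no source used here states versions, annotation or strand use. The TPM values were deposited by the authors beside the counts, per the file headers, and the listed rows sum to 665223 and 629789 with miR-206 and 743941 and 729176 with control. The authors' deposited log2 fold is the difference of log2 mean TPM between groups, without a test.

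Estimated counts were rounded and fitted across all genes with edgeR 4.0.16 (R 4.3.3): filterByExpr, TMM, glmQLFit (robust) and glmQLFTest with group as the only term, on 15240 of 28649 rows. SE and 95% intervals were derived from the F statistic. Alternatives were other scalings, DESeq2 1.42.0, other count filters (none, or at least 50 counts), limma 3.58.1 on log2(TPM + 1) or log2(TPM + 0.1), a replicate block, and leaving out each library with the tested genes held fixed. The code was tested on simulated data.

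The members and lists were chosen with earlier results of these data known. All members are named, with full values for those called and the 5 highest in mean TPM. From other lists up to 4 called genes are named, by smallest p, if their mean level reached 10 normalised CPM. Gene positions and promoter windows are from RefSeq (GRCm38.p6), and all 37 members matched by symbol. Depth gives a floor of 3 counts, 0.157 to 0.330 normalised CPM.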

Additional observations from a re-analysis of the deposited data

How the results depend on the processing

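The number of members enriched, 9 with TMM, was 2 with total counts alone and 3 with TPM at either pseudocount. The number depleted, 1 with TMM, was 5 with upper quartile scaling, 19 with total counts alone, 12 with TPM at either pseudocount, 2 with at least 50 counts and 2 with the replicate block, which added Neu1. Leaving out each library in turn gave 6 to 9 enriched and 1 to 3 depleted members, with the 3 found without control replicate 1 (Ids, Neu1 and Glb1). Of the other lysosomal genes, 21 were enriched with TMM, against 6 with total counts alone and 6 with TPM at either pseudocount, and 7 were depleted, against 21 with upper quartile scaling, 61 with total counts alone, 46 with TPM at either pseudocount and 3 to 17 with each library left out (17 without control replicate 1). With total counts alone 7.02% of all tested genes were enriched and 45.3% depleted. Shares over all tested genes are not given for upper quartile scaling, TPM, at least 50 counts or the replicate block. For the fits leaving out control replicate 2, miR-206 replicate 1 or miR-206 replicate 2, a depleted share is given but no enriched share. Counts without such a share therefore cannot be compared with all genes. The member median of 0.26 was −0.016 with upper quartile scaling, −0.84 with total counts alone, and −0.58 and −0.66 with TPM plus 1 and plus 0.1.

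Of the 14 uncalled members that turned negative with total counts alone, 6 were called depleted there: Hexa (−0.84), Gusb (−0.75), Man2b1 (−0.997), Smpd1 (−0.84), Lamp2 (−0.74) and Npc1 (−0.93). Arsb was −0.18 with total counts and −0.0114 and −0.0122 with TPM plus 1 and plus 0.1, and Ppt1 was −0.17 with total counts and −0.13 and −0.14 with TPM plus 1 and plus 0.1. The cause was not tested. Of 504 member folds under alternatives, 370 kept their direction and their side of the threshold. The labels do not say whether replicates with the same number were made together. Their deviations from the group means correlated at −0.08 across genes, which with 2 libraries a group cannot settle the question. The replicate block changed no member's call other than that of Neu1. With 2 libraries a group, no outlying library can be tested for.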
